A study of Mus musculus with 12 samples.

Results

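Crx, Otx2 and Prdm1 are 3 transcription factor genes of photoreceptor specification, and their cytosine modification was compared between retinas with and without TET enzymes. Every listed region that overlapped a gene, or the 5 kb on either side of it, was taken, which gave 115 of 786,742 regions. Of these, 54 came from the 193,836 regions found by whole-genome bisulfite sequencing (WGBS) and 61 from the 592,906 regions found by bACE-seq. Whole retinas of C57 BL/6J mice at postnatal day 21 were profiled in 12 libraries, 3 for each genotype and assay. Control animals were Cre-negative (Cre-), had the genotype label WT and came from Cre- breeders; whether they carried floxed Tet alleles is not given in the sources used here. In the mutants (Tet tcKO), Tet1, Tet2 and Tet3 were loxP/loxP and were recombined in retinal progenitor cells by the Chx10-Cre-GFP transgene. That transgene is mosaic, and the study in-crossed Cre-positive animals to limit the share of cells that escape. DNA was taken from retinas pooled from 2 animals, per the study's description of the matched RNA and DNA extraction.

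Methylation of cytosine (5mC) is removed in steps, and TET enzymes carry out the early ones by turning 5mC into the hydroxymethylated form, 5hmC. WGBS reads both marks together, whereas bACE-seq reads 5hmC alone, so the level in each assay is the share of cytosines at CpG sites that carry the mark. OTX2 starts the photoreceptor programme in cells that have left the cell cycle and also acts in bipolar cells, CRX is an OTX-family factor that drives the terminal genes of rods and cones, and PRDM1 (BLIMP1) holds down bipolar genes in young photoreceptor precursors.

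Each region has 1 mean level per genotype, so no spread between replicates, depth, interval or test could be given for any level. A region is on a list because its difference passed the authors' test, and absence from a list does not show an unchanged level. Differences below are Tet tcKO minus Cre-, in percentage points. In whole retina, a different mix of cell types and a different level within a cell type cannot be told apart. The lists hold no expression values, so the tissue was not checked against cell type markers.

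The following sequences show how the start sites differ, with each CpG in capitals. They run 5′ to 3′ on the minus strand, which is the coding strand of all 3 genes, in GRCm38 (mm10). The 4 promoter sequences are the 250 bases before a RefSeq start site, taken from the RefSeq promoter table (GRCm38.p6). The Crx promoter at chr7:15879956-15880205 held 1 CpG, fewer than the median of 6 over 32,851 promoters, and lay partly in a WGBS gain. The Otx2 promoter nearest to the start of its main transcript, at chr14:48667509-48667758, held 8 CpGs, all in a WGBS gain. An inner Otx2 promoter at chr14:48665110-48665359 held 14 CpGs and the Prdm1 promoter at chr10:44458749-44458998 held 15, and neither lay in a WGBS gain. A further inner Otx2 promoter, at chr14:48662735-48662984, is not printed. In the 300 bases at its start site, 7 of 11 CpGs lay in a WGBS gain that went from 21.4% to 40.9%. The last sequence is from the WGBS region that went against the rest, with 300 bases at the middle of the Prdm1 region that lost WGBS signal (chr10:44527386-44527685, intronic).
Crx promoter: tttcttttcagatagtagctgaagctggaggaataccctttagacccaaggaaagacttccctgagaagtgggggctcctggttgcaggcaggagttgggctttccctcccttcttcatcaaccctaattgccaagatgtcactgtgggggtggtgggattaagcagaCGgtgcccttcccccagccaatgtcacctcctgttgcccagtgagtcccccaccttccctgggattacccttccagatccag
Otx2 promoter, main start: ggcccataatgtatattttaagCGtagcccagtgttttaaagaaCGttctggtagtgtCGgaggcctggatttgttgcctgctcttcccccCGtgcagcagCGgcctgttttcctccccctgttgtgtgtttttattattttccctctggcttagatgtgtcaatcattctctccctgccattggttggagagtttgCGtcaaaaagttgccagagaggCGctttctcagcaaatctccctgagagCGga
Otx2 promoter, inner start: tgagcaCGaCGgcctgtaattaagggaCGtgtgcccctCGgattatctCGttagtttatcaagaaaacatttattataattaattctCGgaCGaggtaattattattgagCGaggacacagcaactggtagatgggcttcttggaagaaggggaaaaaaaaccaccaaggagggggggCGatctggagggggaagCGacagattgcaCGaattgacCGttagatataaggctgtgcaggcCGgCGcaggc
Prdm1 promoter: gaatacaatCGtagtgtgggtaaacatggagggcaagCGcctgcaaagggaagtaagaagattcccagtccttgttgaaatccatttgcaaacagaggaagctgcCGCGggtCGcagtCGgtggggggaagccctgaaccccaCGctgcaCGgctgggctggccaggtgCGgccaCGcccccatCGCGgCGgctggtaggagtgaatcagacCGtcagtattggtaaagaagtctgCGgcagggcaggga
Prdm1 WGBS loss, middle: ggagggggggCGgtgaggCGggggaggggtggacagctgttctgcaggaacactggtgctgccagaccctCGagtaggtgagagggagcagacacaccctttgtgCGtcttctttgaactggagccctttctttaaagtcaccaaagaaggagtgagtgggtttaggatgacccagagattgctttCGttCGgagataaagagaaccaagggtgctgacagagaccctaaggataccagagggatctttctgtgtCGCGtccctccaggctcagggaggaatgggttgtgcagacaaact

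Loss of the TET enzymes went with more modified cytosine and less 5hmC at all 3 genes. By WGBS, 53 of the 54 regions were higher in Tet tcKO (gains) and 1 was lower, where 1.38% of all WGBS regions were lower. By bACE-seq, 60 of the 61 regions were lower in Tet tcKO (5hmC losses) and 1 was higher, where 0.0353% of all bACE-seq regions were higher. All 3 genes held at least 1 WGBS gain and at least 1 5hmC loss, as did most protein-coding loci, with 76.8% holding a gain and 88.3% a loss. The genes differed from each other in how much of the locus was covered and in how far levels moved. A WGBS gain of at least 20 points was seen in 5 of 6 gains at Crx, 2 of 15 at Otx2 and 16 of 32 at Prdm1, against 27.9% of all WGBS gains.

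**Figure D1:**
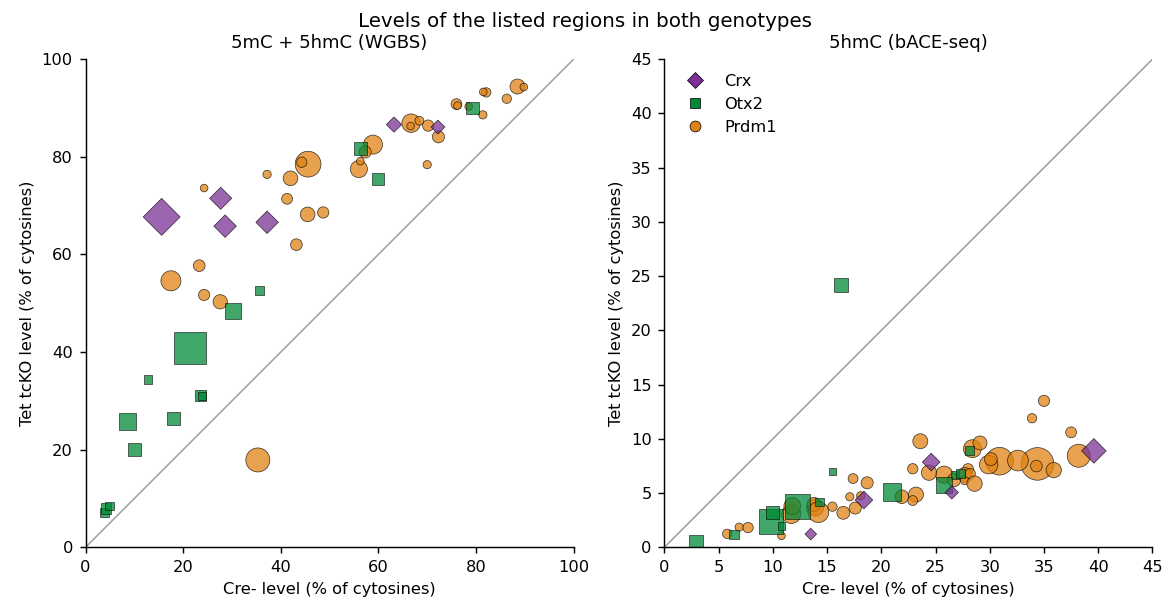
Mean level of each of the 115 listed regions in Cre- (horizontal axis) and Tet tcKO (vertical axis), in percent of cytosines, for WGBS (left) and bACE-seq (right). Symbols mark the gene, symbol area grows with the number of CpGs in the region, and the line marks equal levels; 53 of 54 WGBS regions sit above it and 60 of 61 bACE-seq regions below it.

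WGBS gains held most of the CpGs of Crx. The locus of 24.0 kb (gene at chr7:15865947-15879968, minus strand) has 179 CpGs, or 0.745 per 100 bp. Of these CpGs, 156 (87.2%) lay in 6 gains that covered 75.6% of the locus by length, and there the mean level weighted by CpGs went from 28.2% in Cre- to 69.8% in Tet tcKO, a difference of 41.7 points. The largest of them, at chr7:15871223-15880036, ran for 8814 bp from 68 bp before the start site through exon 1 and intron 1 into exon 2, and its 68 CpGs went from 15.6% to 67.7%. No other of the 191,164 WGBS gains was both as long and as large in its difference. The Cre- level of this block was the lowest of the locus, and 2.87% of all WGBS gains had a lower one, whereas its Tet tcKO level was close to that of the neighbouring gains.

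The other Crx gains had higher Cre- levels and smaller differences. The 1610 bp gain across exons 3 and 4, which hold coding sequence, had 23 CpGs and went from 27.7% to 71.5%. The 3981 bp gain over the end of exon 4, its 3′ untranslated part and the DNA after it had 24 CpGs and went from 28.6% to 65.8%. Upstream, a gain of 3444 bp with 24 CpGs, beginning 1.94 kb before the start site, went from 37.2% to 66.6%. It also held the start of Crxos, a gene read in the opposite direction. Beyond the gene's end, the gain of 382 bp with 10 CpGs went from 63.2% to 86.6% and that of 347 bp with 8 CpGs went from 72.2% to 86.1%. In Tet tcKO all 6 regions stood between 65.8% and 86.6%, whereas in Cre- they ranged from 15.6% to 72.2%.

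**Figure D2:**
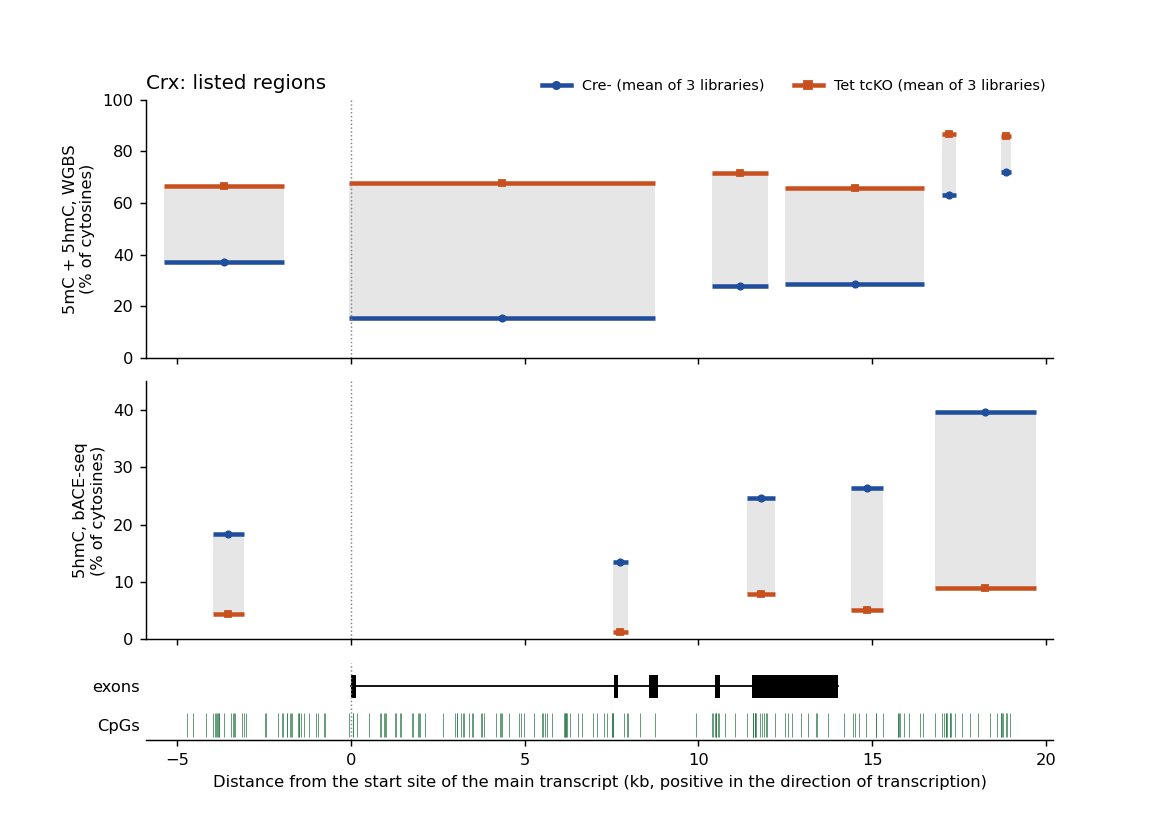
Listed regions at Crx by distance from the start site (kb, positive in the direction of transcription), with the WGBS level (top) and the 5hmC level (middle) in percent of cytosines. Each bar spans a region at the authors' mean of its genotype, with CpGs of the locus and merged exons of all transcripts below; the block from the start site to 8.74 kb went from 15.6% to 67.7%.

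By position, gains held most of the CpGs of Crx inside and outside exons. The levels given by position are means of the whole regions that the CpGs lie in, and at Crx 49 intron CpGs and 19 promoter CpGs share the mean of the 8814 bp gain, so their levels cannot be ranked. Of 56 intron CpGs, 98.2% lay in gains, with a mean of 16.9% in Cre- and 68.1% in Tet tcKO. Of 27 exon CpGs, 96.3% lay in gains and went from 27.5% to 69.6%. Within 2 kb on either side of the start site, 21 of 36 CpGs (58.3%) lay in gains and went from 17.7% to 67.6%. All 4 CpGs within 500 bp of that start site were in the large gain, as were those within 500 bp of the starts of the 4 other annotated Crx transcripts.

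The 5hmC losses listed at Crx lay away from the start site. The 5 losses held 63 CpGs, 35.2% of the locus, and their mean level went from 28.0% to 6.62%, so that 23.6% of the Cre- level was kept. None of the 36 promoter CpGs lay in a 5hmC loss, and 6 of the 56 intron CpGs (10.7%) did. The highest Cre- level was downstream of the gene, where 29 CpGs over 2884 bp went from 39.6% to 8.89%, also with the largest fall of the 5. At exon 4, 14 CpGs went from 24.6% to 7.86%. In intron 1 of the main transcript, inside the 8814 bp gain, 5 CpGs went from 13.5% to 1.22%. Upstream, 14 CpGs within Crxos went from 18.4% to 4.36%, and 7 CpGs after the gene's end went from 26.5% to 5.06%.

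The 3′ part and flanks of Crx carried both changes, and the 5′ part carried the WGBS gain with little listed 5hmC loss. In the 56 CpGs in both kinds of region, the WGBS mean went from 41.0% to 73.7% and the 5hmC mean from 26.8% to 6.35%. These are again means of whole regions, which are longer than their shared part. In the 100 CpGs (55.9% of the locus) in a gain alone, the WGBS level was lower to begin with, 21.0%, and reached 67.7%.

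Otx2 also gained modification over much of its locus, but by less and from a lower start. The gene (chr14:48657677-48673819, minus strand) has a locus of 26.1 kb with 623 CpGs, or 2.38 per 100 bp, the most CpG-dense of the 3. WGBS gains numbered 15 and held 286 CpGs (45.9%), with a mean of 25.9% in Cre- and 41.8% in Tet tcKO, a difference of 15.9 points. Most of these gains were small, and with gains of at least 20 points alone the share of CpGs fell to 3.69% at Otx2, against 83.2% at Crx and 25.8% at Prdm1. In 11 of the 15 the Tet tcKO level stayed under 50%, as against 0 of the 6 gains at Crx and 0 of the 32 at Prdm1. The median Tet tcKO level over all WGBS gains was 82.2%.

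The largest Otx2 gain, at chr14:48656824-48662810, covered exons 4 to 6 and the DNA after them over 5987 bp, and its 105 CpGs went from 21.4% to 40.9%. Next to the start site, a gain of 1285 bp with 27 CpGs, ending 4 bp inside exon 1, went from 8.57% to 25.7%. This gain also held the start of Otx2os1, a long noncoding RNA gene read in the opposite direction. A gain of 24 CpGs beyond the gene's end went from 30.2% to 48.5%, and a gain of 16 CpGs nearby went from 18.1% to 26.4%. The largest difference, 25.4 points, was in a gain of 17 CpGs between 7.40 and 7.97 kb upstream, where the level went from 56.3% to 81.7%. The 10 remaining gains had 5 to 15 CpGs. Of these, 3 gains within 2 kb of the start site had the smallest differences, with 3.88% against 7.10%, 4.20% against 7.87% and 4.92% against 8.47%.

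**Figure D3:**
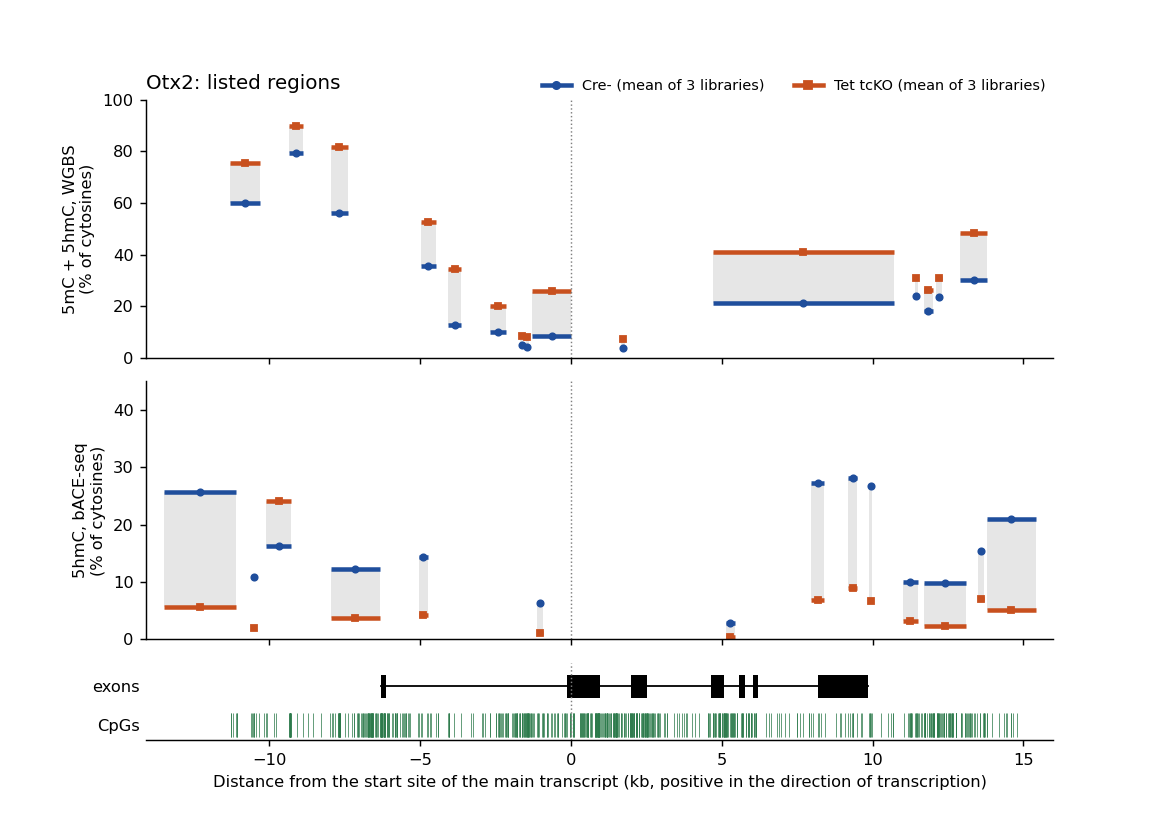
Listed regions at Otx2 by distance from the start site (kb, positive in the direction of transcription), with the WGBS level (top) and the 5hmC level (middle) in percent of cytosines. Each bar spans a region at the authors' mean of its genotype; the WGBS gains with the lowest levels lay within 2 kb of the start site, and 1 bACE-seq region between 9.28 and 10.1 kb upstream was higher in Tet tcKO.

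Around the Otx2 start site, the WGBS gains had low levels in both genotypes. Within 2 kb of that site, 51 of 163 CpGs (31.3%) lay in gains and went from 6.80% to 18.3%. The other CpGs of that window have no listed WGBS level. The start sites of Otx2 differed from each other. Within 500 bp of the start of the main transcript, 12 of 28 CpGs lay in the 1285 bp gain. Within 500 bp of the inner start of Otx2-201, 2.41 kb further in, 0 of 53 CpGs lay in a gain, and the same held for 0 of 60 CpGs at the most upstream start, that of Otx2-210. At the start of Otx2-204, inside the gene, 26 of 31 CpGs lay in the large gain. Of the CpGs in introns, 52.3% lay in gains and went from 19.9% to 37.4%, and of those in exons 48.0% did, from 21.4% to 40.9%.

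The listed 5hmC losses at Otx2 had the lowest mean Cre- level of the 3 genes, and most of their CpGs lay in its flanks. The 13 losses held 206 CpGs (33.1%) and went from 12.6% to 3.45%, keeping 27.4% of the Cre- level. They covered 83.5% of CpGs in the downstream flank and 71.4% in the upstream flank, but 4.29% of those in the promoter window, where 7 CpGs went from 6.41% to 1.17%. After the gene's end, 61 CpGs over 1447 bp went from 9.83% to 2.41%, and 30 CpGs further on went from 21.0% to 5.08%. Upstream, 60 CpGs over 1648 bp, ending just before the first exon of Otx2-210, went from 12.3% to 3.78%, and 25 CpGs at the far end went from 25.8% to 5.72%. The other losses had 4 to 16 CpGs. The highest Cre- level was in 6 CpGs of the untranslated part of exon 6, which went from 28.1% to 8.94%, and the lowest was in 16 intron CpGs 5.13 to 5.43 kb inside the gene, which went from 2.92% to 0.498%.

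A region upstream of Otx2, at chr14:48676797-48677640 inside Otx2os1, was the exception, since its 5hmC level was higher in Tet tcKO. Its 17 CpGs went from 16.3% to 24.2% over 844 bp. Only 209 bACE-seq regions of the whole series were higher in Tet tcKO. Its CpGs were unevenly placed, and 13 of the 17 lay within 62 bp at the end nearer to Otx2. The WGBS gain that shares those 13 CpGs had 15 CpGs and went from 79.2% to 90.0%. How well reads could be placed in such a close run of CpGs was not analysed here, and the part that it had in either value was not tested.

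Prdm1 had the largest share of CpGs in 5hmC losses of the 3 genes and a start site that no WGBS gain reached. Its annotated span (chr10:44437177-44528501, minus strand) is 91.3 kb because of Prdm1-203, a noncoding transcript that starts 69.8 kb before the main one, whereas the protein-coding transcripts span 21.6 kb. The locus of 101 kb has 1271 CpGs, or 1.25 per 100 bp. Of these, 457 (36.0%) lay in 32 WGBS gains, which went from 52.0% to 76.1%, a difference of 24.1 points. In Cre- 11 of the 32 gains were over 70%, and in Tet tcKO all 32 were over 50%. High levels were common in the series, where the median WGBS gain stood at 64.1% in Cre- and 82.2% in Tet tcKO. Of all WGBS gains, 61.8% had a lower Cre- level than the Prdm1 gain at 70.2%.

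Within the coding part, the largest gain was at chr10:44450120-44456249. It ran over 6130 bp of introns on both sides of exon 3, and its 66 CpGs went from 45.6% to 78.5%. Closer to the gene's end, 35 CpGs over 2014 bp around exon 4 went from 58.9% to 82.5%, and 33 intron CpGs over 2033 bp went from 66.7% to 86.9%. In the gains over the last exons Cre- levels were high, and 21 CpGs of exon 5 went from 88.5% to 94.4%. The gains over exons 6 and 7 had larger differences, of 11.8 and 14.8 points. Over all exons, 48 of 87 CpGs lay in gains and went from 77.4% to 90.3%.

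Upstream of the coding start, gains were spread over the long intron of Prdm1-203. The one with the most CpGs, at chr10:44476395-44478513, lay 17.7 to 19.8 kb before the start site and took 39 CpGs from 17.5% to 54.6%, the lowest Cre- level of the 32. Beside it, 15.6 to 16.1 kb upstream, 12 CpGs went from 23.3% to 57.7%. The largest difference at Prdm1, 49.2 points, was in 4 CpGs over 65 bp at 26.7 kb upstream, where the level went from 24.3% to 73.6%. At 35.0 to 36.2 kb upstream, 20 CpGs went from 42.0% to 75.6%. Gains with a low Cre- level lay among others that were high in both genotypes, such as the 4 CpGs at 45.7 kb with 81.5% and 93.3%.

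**Figure D4:**
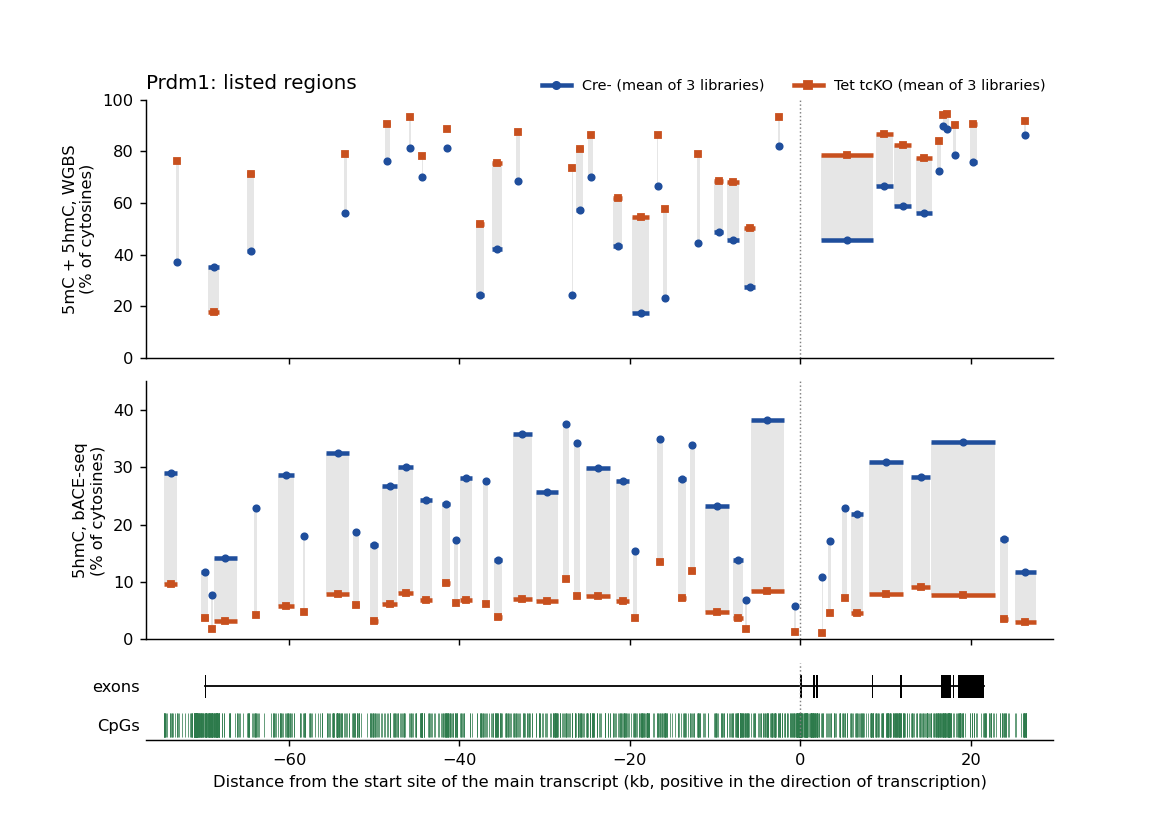
Listed regions at Prdm1 by distance from the start site (kb, positive in the direction of transcription), with the WGBS level (top) and the 5hmC level (middle) in percent of cytosines. Each bar spans a region at the authors' mean of its genotype; gains flank the start site without reaching it, 5hmC losses are spread along the locus and sparse near the start site, and the region at 68.2 to 69.5 kb upstream is the only WGBS region that was lower in Tet tcKO.

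None of the 133 CpGs within 2 kb of the Prdm1 start site lay in a WGBS gain or loss. The nearest gains began 2.44 kb inside the gene and 2.38 kb before it. In that window 8 CpGs (6.02%) lay in 5hmC losses, among them 7 CpGs that went from 5.80% to 1.24%.

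At the far upstream end, a CpG-dense region showed the opposite WGBS direction. At chr10:44526855-44528215, in the first intron of Prdm1-203 and 151 bp from its first exon, 57 CpGs over 1361 bp went from 35.3% to 17.9%. The Prdm1 locus, 101 kb against 24.0 kb at Crx and 26.1 kb at Otx2, takes in this region only through Prdm1-203. Among all protein-coding loci 4.91% held a WGBS loss, and Prdm1 was the only one of these 3 genes that did. Among the genes set beside them further on, Prdm8 held 3 WGBS losses and Samd7, Casz1 and Notch1 held 1 each. The density of the Prdm1 region was 4.19 CpGs per 100 bp. In the same region 42 CpGs also lay in 5hmC losses, where the mean went from 12.7% to 2.98%, so both assays were lower there in Tet tcKO. Outward of it, at 72.9 kb, 5 CpGs went from 37.2% to 76.4% by WGBS.

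5hmC losses covered 873 CpGs of Prdm1 (68.7%) in 42 regions and went from 26.3% to 6.65%, keeping 25.3%. In exons, 86 of 87 CpGs lay in a loss and went from 31.9% to 7.36%. The largest loss, of 7472 bp over exons 5 to 7, took 107 CpGs from 34.4% to 7.69%. A loss of 4044 bp that took in exons 3 and 4 had 76 CpGs, 65 of them in introns, and went from 30.9% to 7.94%. Upstream, 52 CpGs beginning 1.93 kb before the start site went from 38.2% to 8.44%, the highest Cre- level of the 42. Of 2 losses with 42 CpGs each, that at 52.9 kb upstream went from 32.6% to 8.00% and that overlapping the WGBS loss went from 14.2% to 3.24%. The Tet tcKO level of the 42 losses ranged from 1.06% to 13.5%.

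The 2 assays met differently at each gene. A WGBS gain overlapped a 5hmC loss in 6 of 6 cases at Crx, 9 of 15 at Otx2 and 30 of 32 at Prdm1, against 81.1% of all WGBS gains. Counted by CpG, the shared positions were 35.9% of the gain CpGs and 88.9% of the loss CpGs at Crx. They were 39.9% and 55.3% at Otx2, and 72.9% and 38.1% at Prdm1. At Otx2 the 114 shared CpGs went from 30.4% to 47.0% by WGBS and from 12.9% to 3.45% in 5hmC. At Prdm1 the 333 shared CpGs went from 58.8% to 80.1% and from 27.3% to 6.89%. At Prdm1 a further 540 CpGs (42.5%) lay in a 5hmC loss with no WGBS gain.

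Among 21,911 protein-coding loci drawn the same way, with 5 kb on either side, Crx had the highest share of CpGs in WGBS gains. The median locus had 6.18% of its CpGs in gains, against 87.2% at Crx, 45.9% at Otx2 and 36.0% at Prdm1. Counting the gene itself, 111 loci reached the share of Otx2 and 345 that of Prdm1. In the size of the difference within gains, the median over loci with a gain was 15.8 points. Crx (41.7 points) was reached by 28 loci including itself, Prdm1 (24.1) by 1282 and Otx2 (15.9) by 8216, so the difference at Otx2 was that of a median locus. For 5hmC losses the median share was 37.2%, above Crx (35.2%) and Otx2 (33.1%) and below Prdm1 (68.7%). The Cre- 5hmC level in the losses was 28.0% at Crx, 12.6% at Otx2 and 26.3% at Prdm1, with a median of 14.5% over loci. The share of 5hmC kept in Tet tcKO was 23.6% for the median locus, 23.6% at Crx, 27.4% at Otx2 and 25.3% at Prdm1. Cytosines that escape conversion add to low bACE-seq levels, and with an assumed 2 points taken off both levels these shares were 11.4%, 17.7%, 13.7% and 19.1%, so the order of the 3 genes rests on this background.

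**Figure D5:**
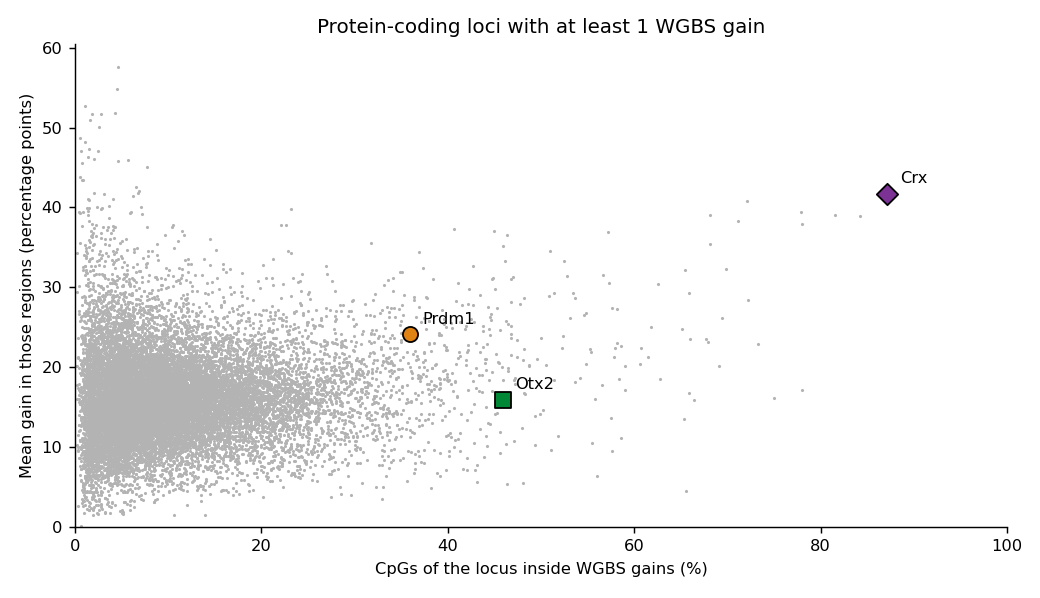
Share of CpGs inside WGBS gains (horizontal axis, percent) and mean difference in those gains (vertical axis, percentage points) for the 16822 protein-coding loci with at least 1 gain. Grey points are single loci and coloured symbols are Crx, Otx2 and Prdm1; Crx lies at the far right, at 87.2% and 41.7 points.

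The 3 genes were set beside lists of related genes. Of 19 other genes of the photoreceptor fate network, 18 held a WGBS gain and all 19 a 5hmC loss. Their median share of CpGs in gains was 30.8%, against 6.18% over all loci. None reached Crx, 5 reached Otx2 and 7 reached Prdm1. Nrl, the rod-determining factor, had 57.3% of its CpGs in gains, from 42.7% to 73.2%, and Nr2e3, its target and partner in rods, had 65.4%, from 43.5% to 75.6%. The highest share was at Casz1, a zinc finger factor gene, with 67.7% and a difference of 23.5 points. Olig2, a progenitor gene, had no gain.

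Within the OTX family, Otx1 had 3.30% of its CpGs in gains, from 22.1% to 31.8%, far below Crx and Otx2. Of the other PRDM genes of the retina, Prdm8 had 3.88% and Prdm13 had 0, against 36.0% at Prdm1. Of 8 genes that CRX is known to activate, 7 held a gain and the median share was 45.9%. Rbp3, the interphotoreceptor retinoid-binding protein, came closest to Crx, with 84.3% of its CpGs in gains and levels from 36.2% to 75.2%. Arr3, cone arrestin, had no gain.

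The CRX binding core TAATCC was searched on both strands, as TAATCC or GGATTA, which do not overlap any other motif searched. In the Crx promoter printed above, GGATTA began 94 and 21 bases before the RefSeq start site. A window of 300 bases at a start site held the core in 7.06% of the 32,851 promoters and held it at least 2 times in 0.359%. The Prdm1 promoter and the Otx2 promoter at the main start had no match, and the inner Otx2 promoter printed above had 1. Over WGBS gains, the core occurred 15 times at Crx (0.807 per kb), 7 times at Otx2 (0.562) and 13 times at Prdm1 (0.439), against 0.545 per kb over all WGBS gains. In the rest of each locus it occurred 0.551, 0.146 and 0.404 times per kb, so the few matches at Crx were not limited to the gains. A match of letters is not a measured binding site.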

How the data were processed

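Genomic DNA of whole retinas was profiled by WGBS and bACE-seq in 12 libraries, grouped by the sample labels. Per the study's description, reads were trimmed (Trim Galore 0.4.4), mapped to mm10 (Bismark 0.18.2), filtered at mapping quality 10, freed of duplicates (Picard) and turned into CpG levels (MethylDackel 0.6.1). The authors then used DSS, which smooths levels along the genome, to join CpGs with p below 0.01 into regions; a region needed 3 CpGs and 50 bp, and neighbours less than 50 bp apart were merged. Each deposited list gives the position of a region, the authors' mean of each genotype as a fraction from 0 to 1, printed here as percent, and the authors' own difference and area statistic, which were not used. Smoothing blurs region ends, and a low bACE-seq level can include cytosines that escaped conversion. Depth and replicate values were not analysed here.

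Loci were GENCODE M21 genes with 5 kb on either side. CpGs were counted in GRCm38.p6, and levels were averaged over the CpGs that lie in a region. Each CpG was classed as promoter (2 kb either side of the start of the longest principal transcript), then exon, intron or flank. Named were the 3 genes, the 5 regions with most CpGs per gene and assay, the highest and lowest genes of each list, and the 2 loci of at least 50 CpGs nearest to each gene by the largest of 6 differences. Other genes and regions were named after their values were seen. The genes and lists were chosen with earlier results of these data known, and 1 gene and 1 sequence were left out for a reason unrelated to their values. Alternatives were no flank or 10 kb, regions of at least 10 CpGs or 20 points, promoter windows of 1 and 5 kb, and means over regions. Scripts ran in Python 3.11.15 with numpy 2.4.6 and pandas 2.3.3 and were tested on simulated regions. Figures used matplotlib.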

Additional observations from a re-analysis of the deposited data

How the results depend on the processing

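No paired analysis was possible because the lists hold 1 mean per genotype, and leaving out a library was not possible for the same reason. Of 52 alternatives to 18 results, 14 stayed close and 38 moved. No alternative could reverse a direction, since regions were split by direction before shares and means were taken. A share of CpGs counted as close within its 95% Wilson interval, and other values within 1 point. That interval treats the CpGs of a locus as independent, which neighbouring CpGs in shared regions are not, so it served only as a yardstick. A change of locus, threshold or weighting moved the results by its own construction. Share of CpGs in WGBS gains: without the flank 98.0% at Crx and 39.3% at Prdm1; with 10 kb of flank 73.3% at Crx and 41.4% at Otx2; with at least 10 CpGs 41.3% at Otx2 and 30.3% at Prdm1; with at least 20 points 3.69% at Otx2 and 25.8% at Prdm1. Share in 5hmC losses: without the flank 18.8% at Crx and 9.76% at Otx2; with 10 kb 45.7% and 39.5%; with at least 10 CpGs 28.5%, 27.1% and 61.7% at Crx, Otx2 and Prdm1; with at least 20 points 16.8%, 2.73% and 37.1%. Differences in WGBS gains as a plain mean over regions were 33.3, 12.6 and 21.1 points, and 48.9 at Crx without the flank. Differences in 5hmC losses as a plain mean were -19.1, -11.8 and -17.2 points, and -15.6 at Crx without the flank. The promoter share in gains at Crx was 75.0% within 1 kb and 81.0% within 5 kb, and at Prdm1 15.1% within 5 kb. An alternative chosen after seeing the data kept to protein-coding transcripts of Prdm1, which gave 46.4% of CpGs in gains, 21.4 points there and -22.5 points in 5hmC losses. Also added after seeing the data was the subtraction of an assumed background of unconverted cytosine from both 5hmC levels, which gave a kept share of 20.8%, 21.1% and 22.3% at Crx, Otx2 and Prdm1 with 1 point and 17.7%, 13.7% and 19.1% with 2 points; 8 of the 60 losses had a Tet tcKO level below 2%.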

Other observations

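The protein-coding locus whose 6 quantities (share of CpGs in WGBS gains and in 5hmC losses, and the level of each genotype in both) lay nearest to those of Crx was Pdc, among 16679 loci compared. Pdc encodes phosducin, which binds transducin subunits in photoreceptors. It had 71.1% of its 194 CpGs in gains, from 38.0% to 76.3%, and 52.6% in 5hmC losses, from 27.2% to 7.10%. Its largest difference from Crx was 17.4 points, so no locus was close to Crx in all 6. The next was Kcna5, a potassium channel gene, with a largest difference of 21.3 points and 65.9% of CpGs in gains.

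Nearest to Otx2 was Tbx2, a transcription factor gene also in the photoreceptor fate list, with a largest difference of 5.76 points. It had 49.4% of its CpGs in gains, from 22.2% to 36.1%, and 29.8% in 5hmC losses, from 9.06% to 2.21%. Akp3, an alkaline phosphatase gene, followed at 9.54 points. Nearest to Prdm1 were Lpcat1, an enzyme gene of phospholipid remodelling, at 1.75 points and Enoph1 at 2.67 points. Lpcat1 had 34.9% of its CpGs in gains, from 52.5% to 77.9%, and 70.4% in 5hmC losses, from 25.3% to 7.01%.

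Soft-masked bases, which mark repeats in the reference, made up 52.5% of the 8814 bp Crx gain, 28.9% of the Otx2 region that gained 5hmC and 5.07% of the Prdm1 region that lost WGBS signal. The other Crx gains held 16.1% to 87.3% of such bases, and no share over all WGBS gains was taken. The Prdm1 region that lost WGBS signal had a GC content of 52.6% and a ratio of observed to expected CpGs of 0.615.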
